A study of Mus musculus with 10 samples.

Results

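The genes of the cytosolic ribosomal proteins were followed through 10 RNA-sequencing libraries of mouse hematopoietic stem cells (HSCs), from which all blood lineages arise. Members were the rows whose symbol is Rpl or Rps followed by a number, with a final a or x allowed, plus Rplp0, Rplp1, Rplp2, Rpsa and Rps3a1, and pseudogenes were left out. This gave 77 of the 20270 genes listed, 31 of the small (40S) and 46 of the large (60S) ribosomal subunit. All 77 were among the 15143 genes tested. The rule uses names alone, not values, though it was set with earlier results of these data known.

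The HSCs came from the bone marrow of C57BL/6 primary recipients that carried transplanted lineage-depleted marrow, and they were sorted by flow cytometry. Donor marrow was Id1-/- (KO-labelled) or Id1+/+ (WT-labelled), and each genotype was present as stressed and as normal HSCs. Each stressed genotype has 2 libraries, A and B, and each normal genotype has 3, A, B and C. The labels define neither stressed nor normal. All 10 samples are dated to 4 weeks by their labels and to 6 weeks by the series design. The surface markers of the sort, any host-derived HSCs in it, and whether a library is 1 animal or a pool are not stated. P-values therefore speak only of the spread from library to library, which may be technical. Steps among the lowest values put the depth at about 25700000 to 33000000 reads, an approximation, since quantile normalization averages these steps over libraries.

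Id1 (GRCm38 chr2:152736251-152737410, plus strand), which encodes an inhibitor of helix-loop-helix transcription factors, checks the labels. It had 9.06 and 8.44 CPM (reads of a gene scaled to a common library total) in KO-labelled stressed HSCs, against 1.28 and 4.39 CPM in WT-labelled stressed HSCs. It had 13.2, 10.6 and 9.62 CPM in KO-labelled normal HSCs, against 1.35, 1.72 and 3.17 CPM in WT-labelled normal HSCs. Each KO-labelled library thus lay above each WT-labelled one, with a log2 difference of 2.50 in normal HSCs (SE 0.45, limma, adjusted p = 0.0175) and of 1.88 in stressed HSCs (SE 0.55, adjusted p = 0.333). Here and below, SE is the standard error from limma, a linear model fitted across all genes, p-values are Benjamini-Hochberg adjusted over the 15143 genes tested, and a gene is called where the adjusted p is under 0.05. That order goes against a loss of the transcript, and the labels do not say which bases the Id1-/- allele lacks. All directions below therefore follow the labels. Of 13 HSC marker genes, among them Kit, Procr, Mecom and Hlf, none was at 0 in any library. The same held for 10 erythroid and 6 megakaryocyte markers, so this does not tell HSCs from other cells.

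A ribosome joins a small subunit, which reads the mRNA, to a large subunit, which makes the peptide bond. The ribosomal proteins are needed in like amounts, and their mRNAs usually start with a C followed by a run of pyrimidines, the terminal oligopyrimidine (TOP) motif, through which mTOR and LARP1 control their translation. In humans, loss of a single copy of many of these genes causes Diamond-Blackfan anaemia, a failure of red cell formation, and RPS14 lies in a region deleted in a myelodysplastic syndrome. HSCs are known for a low rate of protein synthesis.

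The start regions below are shown because the TOP motif is the feature that members are known to share there. They are the 4 members with the largest and the 4 with the smallest KO minus WT difference in normal HSCs (given below), among the 21 members whose RefSeq start lies within 10 bases of the GENCODE start, with 1 chromosome not shown. Each line gives the 30 bases before and the 20 bases from the start, on the gene's own strand, from RefSeq (GRCm38.p6). Capitals mark a C followed by at least 4 pyrimidines, where such a run begins within 5 bases of the listed start.
Rpl41 (chr10:128549149-128549198, minus strand): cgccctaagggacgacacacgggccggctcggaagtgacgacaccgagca
Rps27 (chr3:90213629-90213678, minus strand): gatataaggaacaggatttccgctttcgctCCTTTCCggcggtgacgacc
Rpl36a (chrX:134585624-134585673, plus strand): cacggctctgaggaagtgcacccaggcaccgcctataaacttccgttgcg
Rps21 (chr2:180257349-180257398, plus strand): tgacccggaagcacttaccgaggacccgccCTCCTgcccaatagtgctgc
Rplp0 (chr5:115559437-115559486, plus strand): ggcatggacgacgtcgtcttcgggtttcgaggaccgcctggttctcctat
Rpl13 (chr8:123102320-123102369, plus strand): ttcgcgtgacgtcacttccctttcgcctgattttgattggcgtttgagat
Rps2 (chr17:24720033-24720082, plus strand): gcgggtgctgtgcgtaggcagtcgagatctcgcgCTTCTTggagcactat
Rpl24 (chr16:55966245-55966294, plus strand): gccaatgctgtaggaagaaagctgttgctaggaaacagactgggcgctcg

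A run was found in 2 of the 4 windows from the upper end (Rps27 and Rps21) and in 1 of the 4 from the lower end (Rps2). Promoters were available for 57 of the 77 members, and such a run stood within 5 bases of the start in 25 of the 57 (43.9%), against 20.02% of 10807 promoters of protein-coding genes. Of the other motifs searched in the 250 bases before and 50 bases after the start, CCGGAAG on either strand, the core letters that ETS factors such as GABP bind, was in 38.6% of members' promoters and 17.2% of all. CTTTCC on the sense strand was in 38.6% of members' promoters and 14.5% of all, and CTTTTC on the sense strand in 17.5% of members' promoters and 10.3% of all. TATAAA on either strand was in 8.77% of members' promoters and 7.50% of all. AANATGGCG on either strand, the letters of YY1, was in 8.77% of members' promoters and 5.02% of all. These are letter matches around listed starts, some of which may not be the start used in HSCs.

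The members lie on 19 chromosomes. Their median coding length was 456 bases, against 1335 bases over 14112 protein-coding genes listed, and it ran from 75 bases (Rpl41) to 1257 bases (Rpl4). Of the 77 members, 30 (39.0%) hold at least 1 gene of a small nucleolar RNA, the guides of rRNA modification, against 1.58% of protein-coding genes listed. Other rows of the table matched the transcripts of 55 members at 90% identity or more, and reads could be split between such copies. Copies held more than 10% of the joint CPM for 4 members, 55.6% for Rpl24, 27.5% for Rpl41, 10.99% for Rpl23a and 10.98% for Rpl13a. For 6 members over 50% of the exon bases overlapped another gene, Rpl24, Rpl35, Rps10, Rpl13a, Rpl23a and Rps25, and their values are less certain. Rpl24 (2.43 CPM on average) and Rpl13a (17.3 CPM) were far below the next lowest member, Rps21 at 76.8 CPM.

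Ribosomal protein mRNAs took up the largest share of the libraries in KO-labelled normal HSCs and the smallest in WT-labelled normal HSCs, with both stressed groups between them. The summed share was 2.962% and 3.002% of all CPM in KO-labelled stressed libraries A and B, against 2.85% and 2.76% in WT-labelled stressed libraries A and B. It was 3.47%, 3.19% and 3.30% in the KO-labelled normal libraries. The same share was 2.57%, 2.56% and 2.59% in the 3 WT-labelled normal libraries. The 4 groups did not overlap. The mean was 2.98% ± 0.029 (SD, n = 2) in KO-labelled stressed and 2.81% ± 0.060 (n = 2) in WT-labelled stressed HSCs. In normal HSCs it was 3.32% ± 0.138 (n = 3) for KO-labelled and 2.57% ± 0.015 (n = 3) for WT-labelled libraries. These shares are sums of CPM after quantile normalization, so they are relative values and not raw shares of the reads. In bulk samples fewer cells of a type and less RNA per cell cannot be told apart.

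**Figure D1:**
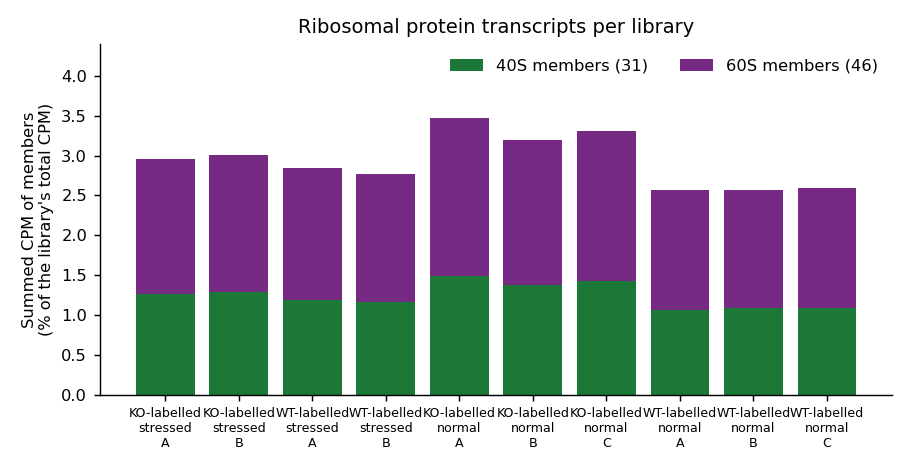
Summed CPM of the 31 members of the 40S and the 46 members of the 60S subunit, as percent of each library's total CPM (y axis), for the 10 libraries by label (x axis). The KO-labelled normal libraries reach 3.19% to 3.47% and the WT-labelled normal libraries 2.56% to 2.59%.

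Positions moved with the shares. Among the 500 most abundant genes were 44 and 44 members in the KO-labelled stressed libraries, against 34 and 35 in the WT-labelled stressed libraries, and 50, 47 and 50 in the KO-labelled normal libraries, against 31, 31 and 31 in the WT-labelled normal libraries. The small subunit members alone made up 1.38% to 1.49% of all CPM in KO-labelled normal HSCs, against 1.07% to 1.08% in WT-labelled normal HSCs.

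The same order of groups held for most members taken singly. The group means ran KO-labelled normal, KO-labelled stressed, WT-labelled stressed, WT-labelled normal from high to low in 63 of 77 members, and in 8 more the stressed groups changed places. The mean was highest in KO-labelled normal HSCs in 73 of 77. The exceptions were Rpl22, an RNA-binding protein with a known role in lymphocyte development, Rpl28, Rpl3 and Rpl24.

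**Figure D2:**
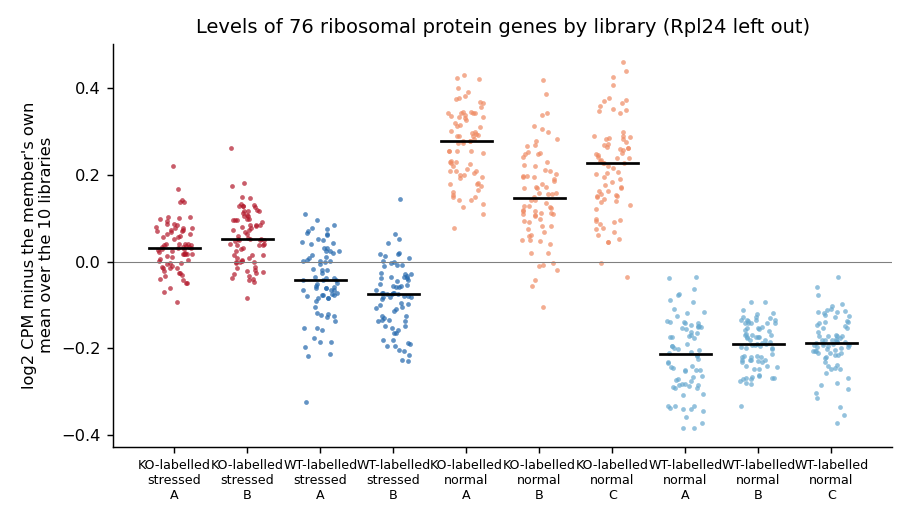
Level of each of 76 members (points, Rpl24 left out) in each library, as log2 CPM minus the member's own mean over the 10 libraries, with the median as a bar. The medians lie at 0.15 to 0.28 in KO-labelled normal and at -0.21 to -0.19 in WT-labelled normal libraries.

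Levels differed among members more than between groups. Per kilobase of coding length, the median member had 714 CPM. Rpl41, whose product is a short peptide at the bridge between the subunits, had 4130 CPM per kilobase, though its coding part is a small part of its mRNA. Rpl32 (1873), Rps29 (1863) and Rpl37a (1844 CPM per kilobase) followed. At the low end stood Rps21 with 308, Rpl7a with 271, Rpl23a with 215, Rpl13a with 28.4 and Rpl24 with 5.17 CPM per kilobase. Libraries of a group lay close together. The SD within groups on the log2 scale was 0.05 for the median member, and the widest were 0.34 (Rpl24), 0.11 (Rpl23a), 0.09 (Rpl13a), 0.08 (Rplp0) and 0.07 (Rpl31).

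In normal HSCs, the question was how the members of KO-labelled cells differ from those of WT-labelled cells without stress. Of the 77 members, 66 were higher in KO-labelled normal HSCs, 0 were lower and 11 were not called (limma), and 75 had an unadjusted p under 0.05. Over all genes tested 1.23% were called higher. The members' median log2 difference was 0.41, against -0.01 over all genes, and the range was -0.03 (Rpl24) to 0.70 (Rpl17). In 75 of 77 members the 3 KO-labelled libraries all lay above the 3 WT-labelled ones, against 10.9% of all genes tested. The exceptions were Rpl3 and Rpl24.

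All 31 small subunit members were called higher, with differences of 0.22 (Rps6) to 0.64 (Rps27). Rps14 (ENSMUSG00000024608, chr18:60747098-60778546), a protein of the platform near the exit of the mRNA, had 659, 620 and 638 CPM in KO-labelled normal HSCs, against 434, 462 and 453 CPM in WT-labelled normal HSCs. The groups were far apart, with a log2 difference of 0.51 (SE 0.04, limma, adjusted p = 0.000178). Rps19 (chr7:24884371-24889806), the gene most often mutated in Diamond-Blackfan anaemia, had 823, 788 and 840 CPM in KO-labelled normal HSCs, against 620, 620 and 605 CPM in WT-labelled normal HSCs. Its difference was 0.41 (SE 0.04, limma, adjusted p = 0.000396) with no overlap. Rps23 (chr13:90922958-90924950), which sits at the decoding centre, had 549, 490 and 510 CPM in KO-labelled normal HSCs, against 346, 350 and 365 CPM in WT-labelled normal HSCs. Here the difference was 0.55 (SE 0.05, limma, adjusted p = 0.000491). Rps27a, made as a fusion with ubiquitin, and Rps27, a zinc finger protein, differed by 0.60 and 0.64.

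The 11 proteins that line the path of the mRNA through the small subunit were all called higher, with a median of 0.44 and a range of 0.23 (Rps2) to 0.55 (Rps23). Rps3, at the mRNA entry, had 751, 689 and 708 CPM in KO-labelled normal HSCs, against 526, 531 and 529 CPM in WT-labelled normal HSCs. The groups did not overlap and differed by 0.44 (SE 0.05, limma, adjusted p = 0.000886). Rps10, over 50% of whose exon bases are shared with other genes, differed by 0.49 and Rps28 by 0.48.

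Of the 46 large subunit members 35 were called higher. Rpl17 (chr18:74998558-75003381), which lines the exit tunnel for the new peptide, had 317, 308 and 301 CPM in KO-labelled normal HSCs, against 182, 195 and 192 CPM in WT-labelled normal HSCs. This was the largest difference among the 77, 0.70 (SE 0.05, limma, adjusted p = 0.000129). Rpl41 had 369, 376 and 409 CPM in KO-labelled normal HSCs, against 241, 241 and 235 CPM in WT-labelled normal HSCs. The groups lay apart by 0.68 (SE 0.05, limma, adjusted p = 0.000129). Its copy Gm10076, 99.0% identical, had 168, 122 and 130 CPM in KO-labelled normal HSCs, against 93.6, 89.3 and 90.9 CPM in WT-labelled normal HSCs, so that the member and its copy both had higher values in each KO-labelled library. Rpl36 (chr17:56613416-56614243) had 378, 353 and 377 CPM in KO-labelled normal HSCs, against 227, 239 and 239 CPM in WT-labelled normal HSCs. Its difference was 0.65 (SE 0.05, limma, adjusted p = 0.000145), and again the groups lay apart. Rpl32 (0.38), Rpl9 (0.40) and Rpl37a (0.41) had the next smallest p-values of the large subunit, while other members had larger differences, among them Rpl36a (0.62) and Rpl35a (0.59).

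The 11 members without a call were all of the large subunit. Rpl14 (0.22), Rplp0 (0.26), Rpl22 (0.32), Rpl13a (0.56), Rpl4 (0.17), Rpl28 (0.24), Rpl6 (0.24), Rpl29 (0.20) and Rpl23a (0.22) had higher values in each KO-labelled library, with adjusted p between 0.0529 and 0.413 (limma). Rpl3, at the peptidyl transferase centre, had 1144, 1100 and 1058 CPM in KO-labelled normal HSCs, against 1058, 946 and 1058 CPM in WT-labelled normal HSCs. The groups met at 1058 CPM, and the difference was 0.11 (SE 0.05, limma, adjusted p = 0.336). Rpl24 had 2.57, 2.47 and 2.11 CPM in KO-labelled normal HSCs, against 2.08, 2.54 and 2.69 CPM in WT-labelled normal HSCs, and overlapped.

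At the rim of the exit tunnel, where nascent peptides leave, 7 of 9 members were called higher (median 0.45). They were Rpl17, Rpl19, Rpl26, Rpl31, Rpl35, Rpl38 and Rpl39, and Rpl22 and Rpl23a were not called. Of the 6 proteins of the stalk, which recruits translation factors, and of the particle with the 5S rRNA, 5 were called higher (median 0.44). Rpl11, which with Rpl5 can bind and inhibit the p53 ligase MDM2, had 340, 294 and 315 CPM in KO-labelled normal HSCs, against 230, 224 and 230 CPM in WT-labelled normal HSCs. It differed by 0.47 (SE 0.06, limma, adjusted p = 0.00333), Rpl5 by 0.36, Rplp1 by 0.43, Rplp2 by 0.44 and Rpl12 by 0.47, while Rplp0, the base of the stalk, missed the threshold with an adjusted p of 0.0529. All 19 genes known from Diamond-Blackfan anaemia in humans were called higher (median 0.46, range 0.28 for Rpl18 to 0.64 for Rps27).

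The count of 66 fell to 27 of 77 (13 of the 40S, 14 of the 60S) and the median to 0.22 when a trend over transcript length was removed from each library, with 0.430% of all genes called higher in that fit. It fell to 12 when limma's variances were not allowed to follow the mean level. The share of all genes called in that fit is not given here, so the members' fall cannot be set against it.

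**Figure D3:**
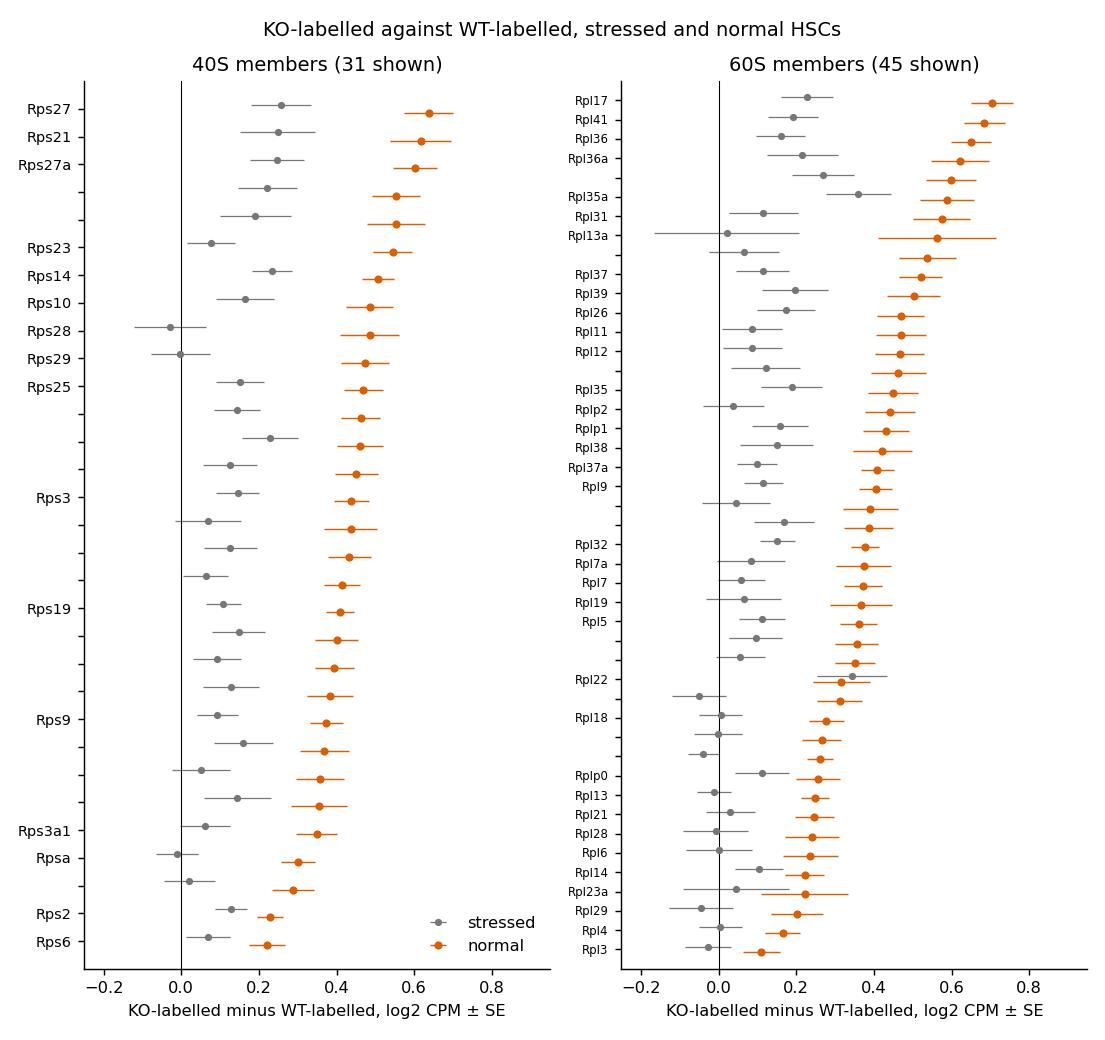
Log2 difference of KO-labelled minus WT-labelled HSCs with its SE for each of 31 members of the 40S and 45 members of the 60S subunit (Rpl24 left out), in stressed (grey) and normal (orange) HSCs, ordered by the difference in normal HSCs, with the members named in the text labelled. In normal HSCs the differences run up to 0.70 (Rpl17), and in stressed HSCs the median over all 77 members is 0.11.

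In stressed HSCs the same comparison gave a smaller median difference, and the interaction given further on tests each member's difference between the conditions. None of the 77 members was called by limma, 0 at an adjusted p under 0.05, while 24 had an unadjusted p under 0.05. Of all genes tested 0.145% were called. The members' median difference was 0.11, against 0.00 over all genes, and 67 of the 77 differences were positive. Both KO-labelled libraries lay above both WT-labelled ones in 54 members, against 19.2% of all genes.

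Rps14 had the smallest p, with 547 and 541 CPM in KO-labelled stressed HSCs, against 459 and 466 CPM in WT-labelled stressed HSCs. The groups lay apart, and the difference of 0.23 (SE 0.05) had an adjusted p of 0.174 (limma). Rpl35a had 164 and 169 CPM in KO-labelled stressed HSCs, against 131 and 129 CPM in WT-labelled stressed HSCs (0.36, SE 0.08, limma, adjusted p = 0.229). Rpl22 had 133 and 142 CPM in KO-labelled stressed HSCs, against 112 and 104 CPM in WT-labelled stressed HSCs (0.34, SE 0.09, limma, adjusted p = 0.283). Rpl22 differed by 0.34 in stressed HSCs and by 0.32 in normal HSCs, and neither was called. By role, the medians were 0.13 along the mRNA path, 0.17 at the tunnel rim, 0.10 in the stalk and 5S particle and 0.13 over the anaemia genes, with no member called.

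The comparisons of stressed with normal HSCs below use the same normal libraries as the comparison of genotypes in normal HSCs. In KO-labelled HSCs the members that passed the test were all lower under stress. Of the 77 members 15 were called lower and 0 higher (limma, 45 with an unadjusted p under 0.05), with 2.28% of all genes tested called lower. The median difference was -0.16, against 0.00 over all genes, and 73 of 77 differences were negative. In 54 members both stressed libraries lay below the 3 normal ones, against 16.6% of all genes. All 15 were also among the members called higher in KO-labelled against WT-labelled normal HSCs.

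Rps27 had the largest change, with 254 and 282 CPM in KO-labelled stressed HSCs, against 357, 363 and 368 CPM in KO-labelled normal HSCs. The groups did not overlap, and the difference was -0.44 (SE 0.07, limma, adjusted p = 0.00496). Rpl9, a protein near the factor-binding site of the large subunit, had 463 and 463 CPM in KO-labelled stressed HSCs, against 586, 545 and 559 CPM in KO-labelled normal HSCs, or -0.28 (SE 0.05, limma, adjusted p = 0.00617). Rpl17 had 248 and 242 CPM in KO-labelled stressed HSCs, against 317, 308 and 301 CPM in KO-labelled normal HSCs, or -0.33 (SE 0.06, limma, adjusted p = 0.00970). All 3 lay lower in each stressed library than in any normal one. The other small subunit members called lower were Rps23 (-0.28), Rps14 (-0.23), Rps9 (-0.23), Rps3 (-0.22) and Rps19 (-0.19), and further large subunit members called lower were Rpl36 (-0.29), Rpl37 (-0.27), Rpl7 (-0.26), Rpl37a (-0.24), Rpl41 (-0.23) and Rpl13 (-0.18).

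By role, 3 of 11 proteins of the mRNA path were called lower (median -0.15), 1 of 9 at the tunnel rim (median -0.08), 0 of 6 in the stalk and 5S particle (limma, 4 with an unadjusted p under 0.05, median -0.21) and 2 of 19 anaemia genes (median -0.20). Rps28, at the exit of the mRNA, had 169 and 172 CPM in KO-labelled stressed HSCs, against 205, 201 and 235 CPM in KO-labelled normal HSCs, and at -0.32 it was not called.

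These calls rest on few libraries. The 15 fell to 0 without KO-labelled stressed library A, to 1 without library B of that group and to 7 without KO-labelled normal library C, and to 0 without a trend in the variance, while the median stayed between -0.19 and -0.14 over the 10 fits that left out a library.

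In WT-labelled HSCs the few members that passed the test were higher under stress. Of the 77 members 4 were called higher and 0 lower (limma, 38 with an unadjusted p under 0.05), with 1.55% of all genes tested called higher. The median difference was 0.14, against 0.01 over all genes, and 74 of 77 were positive. In 62 members both stressed libraries lay above the 3 normal ones, against 19.7% of all genes.

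Rpl41 had 283 and 289 CPM in WT-labelled stressed HSCs, against 241, 241 and 235 CPM in WT-labelled normal HSCs, with no overlap and a difference of 0.26 (SE 0.06, limma, adjusted p = 0.0369). Rps25, which some viral and cellular mRNAs need for internal ribosome entry, had 377 and 390 CPM in WT-labelled stressed HSCs, against 309, 324 and 340 CPM in WT-labelled normal HSCs. Its difference was 0.24 (SE 0.06, limma, adjusted p = 0.0409), and over 50% of its exon bases overlap genes of the opposite strand. Rpl5 had 337 and 330 CPM in WT-labelled stressed HSCs, against 280, 279 and 293 CPM in WT-labelled normal HSCs. Stressed and normal libraries lay apart, by 0.23 (SE 0.05, limma, adjusted p = 0.0419).

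By role, Rpl5 was the member called in the stalk and 5S particle (median 0.14 over 6) and among the 19 anaemia genes (median 0.12). No protein of the mRNA path or the tunnel rim was called by limma, 0 of 11 (8 with an unadjusted p under 0.05, median 0.18) and 0 of 9 (5 with an unadjusted p under 0.05, median 0.17).

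The 4 calls fell to 0 without either WT-labelled stressed library, without any WT-labelled normal library and without either KO-labelled stressed library, to 2 without KO-labelled normal library C, and went to 8 without KO-labelled normal library A. With the trend over transcript length removed, the median was 0.00 and 1 member was called, Rps27, which was lower (-0.29), with 1.57% of all genes called lower in that fit.

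The stress change in KO-labelled minus that in WT-labelled HSCs, the interaction, was negative for 75 of 77 members, with a median of -0.30, against 0.00 over all genes. None was called by limma, 0 at an adjusted p under 0.05, while 64 had an unadjusted p under 0.05, and over all genes 0.0198% were called. The smallest p belonged to Rpl36 (-0.49, SE 0.08, limma, adjusted p = 0.0765), and those of Rpl41 (-0.49, SE 0.08, adjusted p = 0.0786) and Rps23 (-0.47, SE 0.08, adjusted p = 0.0786) followed. In 42 members the stressed libraries lay all below the normal ones in KO-labelled and all above them in WT-labelled HSCs, against 1.62% of all genes. Rpl36 was 1 of the 42. It had 306 and 299 CPM in KO-labelled stressed HSCs, against 378, 353 and 377 CPM in KO-labelled normal HSCs, and 267 and 274 CPM in WT-labelled stressed HSCs, against 227, 239 and 239 CPM in WT-labelled normal HSCs. Among genes above a log2 value of 6 in at least 2 libraries, 5171 genes in all, 5 members were called, among 18 genes called in that fit. With the trend over transcript length removed, none was, and the median was -0.13.

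**Figure D4:**
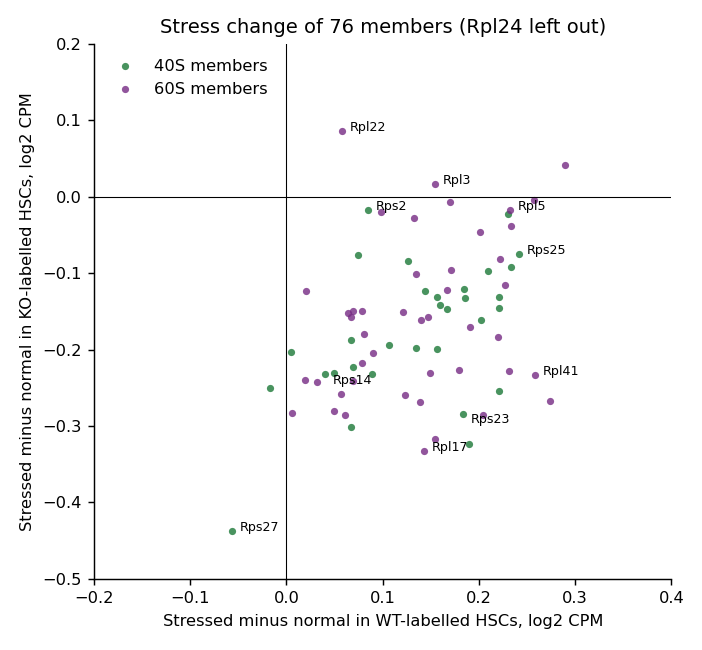
Log2 difference of stressed minus normal HSCs for 76 members (Rpl24 left out), in KO-labelled HSCs (y axis) and in WT-labelled HSCs (x axis), which share no library. Most points lie below 0 on the y axis and above 0 on the x axis, and Rps27 lies lowest at -0.44.

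Members were then compared with the family itself, by taking the members' median in each library as zero. In normal HSCs, KO-labelled against WT-labelled, 3 members were called above this zero (limma), Rpl17 (0.19), Rpl41 (0.18) and Rpl36 (0.14), and 29 below it. The zero is a median of levels, with a mean of 8.47 in KO-labelled and 7.96 in WT-labelled normal libraries. It moved by more than the upper quartile of the members' own differences (0.48, median 0.41). Most members therefore lie below it, and the split of 3 against 29 depends on this choice of zero. On this scale 52.3% of all genes were called in either direction. Subtracting the members' median shifts the other genes too, so this share is no baseline for the members. So many small p-values among other genes also loosen the adjusted threshold, which therefore does not bound false calls among members. Before adjustment 38 members reached p under 0.05 (limma), and 32 stayed called after it. The backgrounds given below on this scale share this limit. Rpl4 (-0.34, SE 0.04, limma, adjusted p = 0.000118), which lines the exit tunnel, had 1209, 1083 and 1125 CPM in KO-labelled normal HSCs, against 1034, 978 and 1034 CPM in WT-labelled normal HSCs. The groups lay apart, but by less than the family. Rpl3 (-0.40), Rpl13 (-0.26), Rps2 (-0.28), the S6 kinase substrate Rps6 (-0.29), Rpl14 (-0.29) and Rpl21 (-0.26) were also below it. The count of 32 became 18 to 33 when a library was left out, with 18 without WT-labelled normal library A, 21 without its library C and 21 without KO-labelled normal library C, and 17 without a trend in the variance.

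In stressed HSCs no member departed from the family between KO-labelled and WT-labelled cells (limma, 12 with an unadjusted p under 0.05, background 0.31%). The stress change departed from the family in KO-labelled HSCs for Rps2 (0.16, above) and Rps27 (-0.26, below), against a background of 8.68%, and for none in WT-labelled HSCs (limma, 13 with an unadjusted p under 0.05, background 7.17%). In the interaction Rps2 alone was called (0.25, limma, adjusted p = 0.0401, background 6.79%). The zero itself moved by -0.35 in the interaction, against a median of -0.30 over the members' own values. Part of the 0.25 is this offset of the zero. Rps2 had 746 and 746 CPM in KO-labelled stressed and 687 and 679 CPM in WT-labelled stressed HSCs. It had 760, 735 and 771 CPM in KO-labelled normal and 645, 638 and 649 CPM in WT-labelled normal HSCs. The stressed values of Rps2 in KO-labelled HSCs thus fell within the range of the normal ones. Relative to the family, no member was called in the interaction in 9 of the 10 fits that left out a library, the exception being the fit without KO-labelled normal library C, with 1 member. In the KO-labelled stress change at most 1 member was called in each of the 10 fits, in place of 2.

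Members with longer coding regions tended to differ less. Across the 77 members, which share the same libraries, the KO minus WT difference in normal HSCs went with log2 coding length at Pearson's r = -0.59 and Spearman's rho = -0.63, and with the mean level at -0.13 and -0.45. Coding length and level were themselves related, at 0.35 and 0.55. The median difference was 0.50 for the 9 members of up to 300 bases, 0.44 for 46 members of 300 to 600 bases, 0.35 for 19 members of 600 to 900 bases and 0.17 for 3 members of 900 to 1500 bases. The medians of the other genes tested also ran downward with length, with values of 0.26 (267 genes), 0.16 (1417), 0.07 (1745) and 0.00 (3546) in the same classes, -0.07 (3975) from 1500 to 3000 bases and -0.14 (1650) above 3000 bases. In each of the 4 classes that hold members, the members' median was thus above that of the other genes. The part that length plays in the result was tested only by removing the trend over transcript length, as given above. Transcript length is not the coding length used here. The 30 members that hold a snoRNA gene had a median difference of 0.37 and the other 47 one of 0.44, and their median coding lengths were 511.5 and 435 bases.

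**Figure D5:**
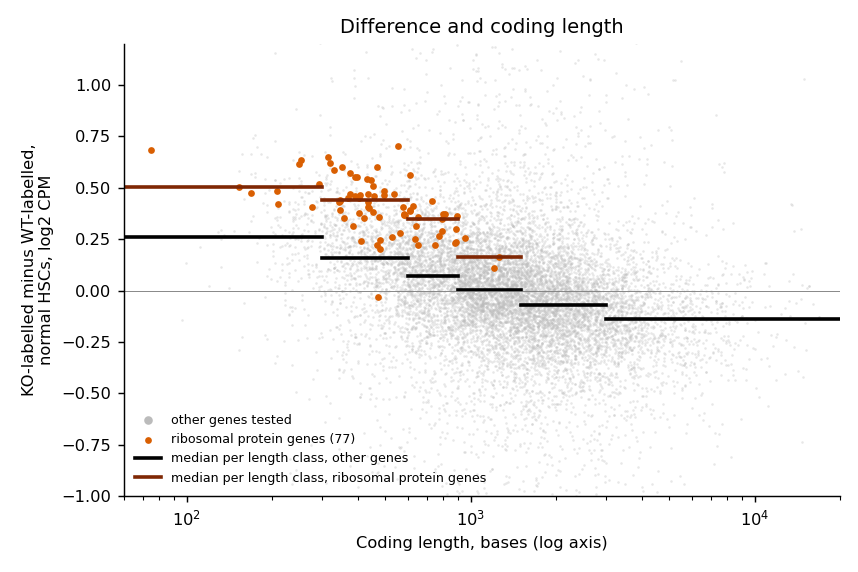
Log2 difference of KO-labelled minus WT-labelled normal HSCs (y axis) against coding length in bases (log axis) for the 77 members (orange) and the other genes tested (grey), with the median in each length class as a line. The members' medians run from 0.50 to 0.17 and those of other genes from 0.26 to -0.14, and 682 genes lie outside the plotted range.

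Genes outside the rule that work with the ribosome were read from lists. Of 9 tested paralogs and fusion genes, 4 were called higher in KO-labelled normal HSCs (limma). Fau, which encodes the small subunit protein S30 fused to a ubiquitin-like protein, had 173, 162 and 185 CPM in KO-labelled normal HSCs, against 115, 114 and 114 CPM in WT-labelled normal HSCs (0.60, SE 0.07, limma, adjusted p = 0.00143). Rps27l (0.52), Rpl36al (0.43) and Rack1 (0.30), a scaffold on the small subunit, were the others. Fau was also lower in KO-labelled stressed than in KO-labelled normal HSCs (-0.37).

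Of 20 translation factors and other genes with TOP mRNAs, 6 were called higher in KO-labelled normal HSCs and none lower, with a median of 0.21. Naca, a chaperone of nascent chains, had 418, 384 and 404 CPM in KO-labelled normal HSCs, against 308, 306 and 318 CPM in WT-labelled normal HSCs (0.37, SE 0.05, limma, adjusted p = 0.00230). Npm1 (0.31), Tpt1 (0.34), Btf3 (0.32), Eef1b2 (0.38) and Eif3e (0.35) were the others.

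Eef1a1, which brings aminoacyl-tRNA to the ribosome, moved otherwise. It had 5375 and 5375 CPM in KO-labelled stressed HSCs, against 3112, 2848 and 2443 CPM in KO-labelled normal HSCs, and 4492 and 4492 CPM in WT-labelled stressed HSCs, against 3112, 3112 and 3112 CPM in WT-labelled normal HSCs. Equal values are equal ranks under quantile normalization. Eef1a1 was thus called higher under stress in both genotypes, with differences of 0.95 for KO-labelled cells (adjusted p = 2.60e-05) and 0.53 for WT-labelled cells (adjusted p = 0.00221, both limma with SE 0.07).

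Few of the genes that build ribosomes were called. Of 39 assembly factors, 1 (Nop10, 0.38) was called higher in KO-labelled normal HSCs, and the median was 0.03. Nucleolin (Ncl), which acts early in rRNA synthesis, had 1372 and 1354 CPM in KO-labelled stressed HSCs, against 1058, 1125 and 1100 CPM in KO-labelled normal HSCs. It was called higher there by 0.32 (SE 0.04, limma, adjusted p = 0.000750), while 15 members were called lower in the same comparison. Rrs1 was also higher in KO-labelled stressed HSCs (0.54), and Rrp12 was lower in WT-labelled stressed HSCs (-0.45).

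Of 77 mitochondrial ribosomal proteins 0 were called in KO-labelled against WT-labelled normal HSCs by limma (24 with an unadjusted p under 0.05), with a median of 0.19 and 74 positive differences. Of 52 tested pseudogene rows 0 were called (limma, 6 with an unadjusted p under 0.05), with a median of 0.43. Of 21 genes of RNA polymerases I and III, 26 genes of MYC and mTOR control and 18 genes of p53 targets, 0 were called in that comparison (limma, 5, 5 and 3 with an unadjusted p under 0.05), with medians of 0.08, -0.02 and 0.01. The value for Myc itself was -0.19 (SE 0.05, limma, adjusted p = 0.0801). Under stress in KO-labelled HSCs Mycn (-0.32), Max (-0.71), Ccng1 (-0.49) and Plk2 (-1.51) were lower. Plk2 was lower in WT-labelled stressed HSCs too (-2.05).

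Markers of other cell types moved with the labels as well, and their part in the members' differences was not tested. The summed CPM of the 13 HSC markers was 4531 to 4772 in KO-labelled normal HSCs, against 5187 to 5519 in WT-labelled normal HSCs, and 2 of the 13, Kit (-0.31) among them, were called lower. The summed CPM of 10 granulocyte and monocyte markers was 431 to 475 in KO-labelled normal HSCs, against 341 to 380 in WT-labelled normal HSCs, and Mpo was called higher (2.28). Elane, an early granulocyte gene, had 5.68, 5.51 and 6.09 CPM in KO-labelled normal HSCs, against 1.86, 0.18 and 0.06 CPM in WT-labelled normal HSCs. Of the 10 differences 8 were positive and 2, those of Ltf and Csf1r, were negative. Most of each granulocyte and monocyte sum was Lyz2, with 299 to 338 CPM in KO-labelled and 247 to 282 CPM in WT-labelled normal HSCs. The 10 erythroid markers summed to 1659 to 1746 CPM in KO-labelled normal HSCs, against 1733 to 1761 CPM in the WT-labelled ones. The 6 megakaryocyte markers summed to 781 to 830 CPM in KO-labelled normal HSCs, against 895 to 918 CPM in the WT-labelled ones.

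Under stress the megakaryocyte markers stood at 1382 to 1385 CPM in KO-labelled and 1294 to 1318 CPM in WT-labelled HSCs, above all normal libraries, and Pf4, Itga2b and Gp1bb were called higher under stress in both genotypes. The HSC markers summed to 4006 to 4130 CPM in KO-labelled stressed HSCs, against 4349 to 4427 CPM in WT-labelled stressed HSCs. Under stress 4 of the 13 were called lower in KO-labelled HSCs, among them Hlf (-0.61) and Procr (-0.68), and 4 in WT-labelled HSCs, among them Hlf (-0.54) and Kit (-0.26), where Cd34 was called higher (0.32). The erythroid markers summed to 1532 to 1545 CPM in KO-labelled stressed HSCs and 1576 to 1579 CPM in WT-labelled stressed HSCs, below all normal libraries. Most of each sum was Car2. Under stress 1 of 10 was called lower in KO-labelled and 3 of 10 in WT-labelled HSCs. Between genotypes in stressed HSCs, 8 of the 10 KO minus WT differences were positive and 2 negative, unlike the sums. None of these was called (limma, 3 with an unadjusted p under 0.05). The 3 T and NK cell markers found in the table summed to 98.1 to 99.3 CPM in KO-labelled stressed HSCs, against 63.8 to 68.5 CPM in KO-labelled normal HSCs. They summed to 110.5 to 123 CPM in WT-labelled stressed HSCs, against 61.28 to 67.01 CPM in WT-labelled normal HSCs. Nkg7 made up most of these sums and was called higher under stress in both genotypes (0.64 in KO-labelled and 1.03 in WT-labelled HSCs). The stress differences of the other 2, Cd4 and Klrb1c, were negative in both genotypes. Of the B and plasma cell markers, Igkc had 130 and 136 CPM in KO-labelled stressed HSCs and at most 1.5 CPM in any other library.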

How the data were processed

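The submitters' processing notes name Bowtie2 for alignment, mm10 as the mouse build and featureCounts for counting, without versions. The authors deposited 1 table of log2 CPM values (reads per gene relative to the library's total, on a log scale). Its values share a common lowest and highest value in all 10 libraries, so they had been quantile normalized, which can narrow the spread of abundant genes. Strandedness and the treatment of reads that match several copies are not given in the sources used here.

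From the deposited log2 values, 15143 genes passed a filter of more than 0 in 2 libraries or more. Means of the 4 groups were estimated from all 10 libraries together (6 residual degrees of freedom, no replicate block) with limma 3.58.1 in R 4.3.3, with a trend of the variance over the mean level. P-values were Benjamini-Hochberg adjusted over all 15143 genes, and a gene with an adjusted p under 0.05 is called. Differences are log2, with limma's standard error (SE). For departures from the family, the members' median in each library was subtracted from every gene before the same fit. The fit was checked on simulated data.

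GENCODE vM21 on GRCm38, the build of mm10, gave coordinates (counted from 1), lengths and snoRNA genes, and held 20199 of 20270 identifiers. Promoters came from RefSeq on GRCm38.p6. Copies were found with blastn 2.17.0 at 90% identity or more over at least 50% of a member's transcript, and figures were drawn in Python 3.11.15. Members, lists and tests were chosen with earlier results of these data known. Named are up to 6 called members per subunit with the smallest p, members called against the family, the 5 highest, lowest and most variable members, those of role lists, Id1, and up to 4 genes per pathway list. The 24 alternatives covered the variance model, filter, pseudocount, scaling, length, copies, weights, block, libraries and threshold. Values of some genes are not reported here.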

Additional observations from a re-analysis of the deposited data

Results flagged for a closer look

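On the deposited values, the members' median level was lower in both KO-labelled stressed libraries than in the 3 KO-labelled normal ones, and higher in both WT-labelled stressed libraries than in the 3 WT-labelled normal ones, and the stress change in KO-labelled HSCs minus that in WT-labelled HSCs was -0.35 for this median (log2). For this median the difference was not tested. With the trend over transcript length removed, the stress change in WT-labelled HSCs was positive for 40 members and negative for 37 (median 0.002), and the members' median interaction was -0.125, against -0.30 without that step. Among members the same opposite movement of all libraries gave -0.51 for Rps28, -0.49 for Rpl41, -0.49 for Rpl36, -0.48 for Rpl17, -0.47 for Rps29, -0.47 for Rps23, -0.41 for Rpl37, -0.31 for Rpsa, -0.31 for Rpl37a and -0.30 for Rps19. The interaction was tested for each of these members with limma, and none passed an adjusted p under 0.05.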

How the results depend on the processing

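With 2 or 3 libraries a group, single calls depend on the variance model and on single libraries, while the family's median differences kept their sign under each alternative run. A kept sign can still be a median near zero. With the length trend removed, the median stress change in WT-labelled HSCs was 0.002, with 40 members positive and 37 negative. Stressed HSCs have 2 libraries a genotype. Where a stressed group was left with 1 library, that library is assumed to vary like the other groups.

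Where a count below has no share over all genes beside it, it cannot be set against the calls over the whole table. In KO-labelled against WT-labelled normal HSCs, 12 members were called without a trend in the variance and 27 with the trend over transcript length removed (median 0.22). For stressed against normal KO-labelled HSCs, 0 were called without a variance trend, 26 above a log2 value of 6 in at least 2 libraries (5.78% of all genes called lower in that fit), 1 in a fit of only the groups compared and 3 at an adjusted p under 0.01. For stressed against normal WT-labelled HSCs, 0 were called without a variance trend, without a filter on low values, in a fit of only the groups compared and at an adjusted p under 0.01, 8 above a log2 value of 6 (4.58% of all genes called higher), and 1, lower, with the length trend removed (1.57% of all genes called lower, median 0.002). For the interaction, 5 were called above a log2 value of 6 (18 of 5171 genes in all), and the median was -0.125 with the length trend removed. Relative to the family, the variance model without a trend called 17 members in normal HSCs, 0 in the KO-labelled stress change and 0 in the interaction, and a pseudocount of 1 CPM called 1 in the KO-labelled stress change.

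Over the 10 fits that left out a library, calls ranged from 53 to 66 (KO-labelled against WT-labelled normal HSCs, medians 0.40 to 0.44), 0 to 0 (the stressed comparison), 0 to 18 (stress, KO-labelled), 0 to 8 (stress, WT-labelled) and 0 to 0 (interaction). Relative to the family they ranged from 18 to 33 in normal HSCs and from 0 to 1 in each of the other 4 comparisons.

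Libraries with the same letter did not deviate together (correlations -0.024 to 0.0053 over genes). Deviations from the mean of so small a group depend on each other, so these correlations cannot decide whether letters pair the samples. Whether libraries of the same letter share animals or a sort is not stated. With the letter as a replicate block, 6 members were called in the KO-labelled stress change, 0 in the WT-labelled one, and, relative to the family, 0 in the KO-labelled stress change and 0 in the interaction. The cause of these changes was not tested.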
